A study of Mus musculus with 50 samples.

Results

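The regions described here are stretches of the mouse genome that were open in every kidney library, young and old, and in no liver library. Peaks of accessible chromatin from 12 ATAC-seq libraries (an assay in which a transposase cuts DNA wherever chromatin is open) were merged wherever they shared 1 bp or more, which gave 481669 regions. A region was kept when a peak of all 6 kidney libraries and of none of the 6 liver libraries lay in it, and 7687 regions met this rule. The regions were thus chosen by the presence of peaks, and every difference in accessibility between kidney and liver given below is a description and was not tested. RNA levels, position and sequence took no part in the choice. The size of the difference between young and old kidney took none either, but regions whose peak was missing in any young or old kidney library were left out by the rule, so a region that opened or closed fully with age cannot be among them.

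The mice were untreated female C57BL/6 animals, either young (2.5 months) or old (23 to 25 months). Kidney and liver of each age were profiled whole, from frozen tissue, by ATAC-seq with 3 libraries a group and by RNA-seq with 4 libraries a group. Each kidney library held between 93072 and 128395 peaks and each liver library between 112125 and 136849, and the RNA libraries held between 14238228 and 43704147 counts in genes. The labels do not say which libraries came from the same animal, so p-values measure the spread between these libraries. In whole tissue, fewer cells of a type cannot be told apart from less RNA, or less open chromatin, per cell.

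Tissue-specific open regions are mostly enhancers, stretches bound by transcription factors that act on a start site at a distance, while the start sites of housekeeping genes are open in nearly every cell. Most kidney cells are epithelial cells of the tubule, in which the proximal tubule takes back phosphate, glucose and amino acids, the thick ascending limb takes back salt, and the distal nephron and collecting duct set the final urine. The HNF1 core is a short letter run bound by homeodomain factors, and C/EBP and FOXA factors bind many liver enhancers in hepatocytes.

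Sequences of 4 of these regions, read from the GRCm38 (mm10) genome as the summit with 100 bases on either side, show the core that was found most often of the 9 sought, the HNF1 core GTTAAT or its reverse complement ATTAAC. The 4 are chosen because they lie at start sites of highly expressed kidney genes and hold the core, which most start-site regions do not. Capitals mark core letters, and in the Akr1c21 window the first capital stretch is the FOXA core TGTTTAC on the other strand. All are printed 5′ to 3′ on the plus strand. The windows are chr13:55399428-55399628 for Slc34a1, chrX:164090006-164090206 for Cltrn, chr15:89334160-89334360 for Miox and chr13:4573985-4574185 for Akr1c21.
Slc34a1: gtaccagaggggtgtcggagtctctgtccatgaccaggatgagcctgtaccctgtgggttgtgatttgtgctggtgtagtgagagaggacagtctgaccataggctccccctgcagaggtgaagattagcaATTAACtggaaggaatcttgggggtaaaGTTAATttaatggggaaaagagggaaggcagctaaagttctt
Cltrn: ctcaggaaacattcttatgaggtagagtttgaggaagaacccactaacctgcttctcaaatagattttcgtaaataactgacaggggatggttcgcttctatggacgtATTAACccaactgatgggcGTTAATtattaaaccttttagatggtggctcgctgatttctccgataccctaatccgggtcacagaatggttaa
Miox: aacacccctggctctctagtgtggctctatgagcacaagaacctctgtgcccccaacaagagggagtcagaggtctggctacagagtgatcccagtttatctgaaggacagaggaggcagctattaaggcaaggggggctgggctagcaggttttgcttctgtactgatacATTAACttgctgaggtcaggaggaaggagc
Akr1c21: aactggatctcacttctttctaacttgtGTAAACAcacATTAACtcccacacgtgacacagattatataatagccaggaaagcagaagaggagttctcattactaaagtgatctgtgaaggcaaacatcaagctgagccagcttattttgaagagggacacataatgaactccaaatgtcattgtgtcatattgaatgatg
The Slc34a1 and Cltrn windows each hold the core on both strands, and the Miox and Akr1c21 windows hold it once.

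Most kidney-only regions, like most of all merged regions, lay away from start sites. Of the 7687 regions, 487 (6.34%, 95% Wilson interval 5.81 to 6.90, counting error only) were within 1 kb of a GENCODE transcription start site, 3643 (47.4%) were centred in an intron, 3275 (42.6%) between genes and 282 (3.67%) in an exon. Their median distance to the nearest start site was 30.5 kb. Some 24.5% lay within 10 kb of one, 37.0% beyond 50 kb and 21.0% beyond 100 kb. Over all 481669 merged regions, 5.73% were at start sites and the median distance was 42.3 kb. The 2571 regions open in all 6 liver and no kidney library had 4.36% at start sites and a median distance of 29.5 kb. Of the 24014 regions with a peak in all 12 libraries, 45.5% were at start sites and the median distance was 3.47 kb. The differences between these shares were not tested.

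**Figure D1:**
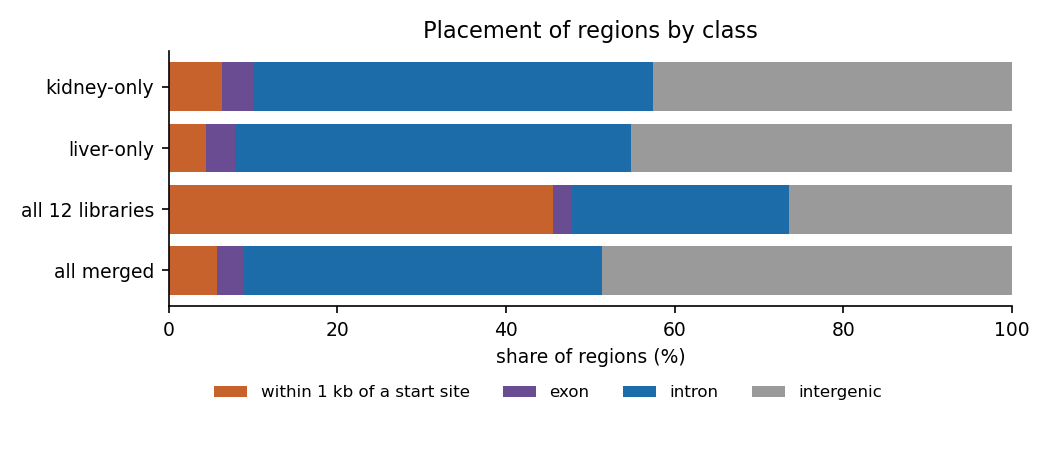
Share of regions (%, horizontal axis) at a start site, in exons, in introns and between genes, for the kidney-only regions, the liver-only regions, the regions open in all 12 libraries and all merged regions. Start sites hold 6.34% of kidney-only, 4.36% of liver-only and 5.73% of all merged regions but 45.5% of the regions open in all 12 libraries.

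Kidney-only regions had a median width of 670 bp, as did liver-only regions, against 1121.5 bp for regions open in all 12 libraries. Their median GC content over the summit window was 49.3% and they held 2.92 CpG dinucleotides a window on average, while regions open in all libraries had 56.7% GC. Even at start sites the kidney-only regions were poorer in CpG, with a mean of 7.60 a window against 16.8 at start sites open in all libraries. They were scattered, with a median of 122 kb between neighbours, and 918 of 7667 gaps were within 10 kb. In 1996 of them (26.0%) a region with a liver peak lay within 1 kb, so not all were far from chromatin that liver also opened. They came from chromosomes 1 to 19 and X.

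In percentage points, the HNF1 core differed most between kidney-only regions and each of the all-library and all merged regions. It occurred in 1527 of 7687 windows (19.9%), against 5.29% of liver-only, 5.33% of all-library and 6.80% of all merged regions in windows of the same length. The share was 20.4% away from start sites, against 8.18% in non-promoter regions open in all libraries, and 11.3% at start sites, against 1.92%. Regions open in all 6 kidney and 1 to 5 liver libraries lay between, at 12.6%. Liver-only regions carried other cores. The C/EBP core TTGCNNAA stood in 20.0% of them against 9.13% of kidney-only and 8.61% of all merged regions, and the FOXA core TGTTTAC in 9.45% against 3.29% and 3.11%.

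The remaining cores are given beside their share of all merged regions. The HNF4 core CAAAGTCCA was found in 2.19% of kidney-only and 1.48% of liver-only regions, beside 0.762% of regions open in all libraries and 0.640% of all merged regions. The AP-1 core TGANTCA was found in 9.90% of kidney-only, 7.39% of liver-only and 7.46% of all merged regions. The HOX core TTTATGG, a letter run bound by posterior HOX proteins, stood in 2.95% of kidney-only, 1.24% of liver-only and 2.42% of all merged regions. The core TCAAGGTCA of oestrogen-related receptors was in 0.768%, 0.467% and 0.511% in the same order. The core AACCGGTT, bound by GRHL factors and TFCP2L1, was in 10 kidney-only windows (0.130%) and in none of the liver-only ones, beside 0.108% of regions open in all libraries, 0.146% of those open in all 6 kidney and 1 to 5 liver libraries and 0.0596% of all merged regions. The ETS core ACCGGAAG, common at housekeeping promoters, stood in 0.364% of kidney-only, 0.272% of liver-only and 0.367% of all merged regions. Of regions open in all libraries 2.31% held it, which was 4.44% at start sites and 0.527% elsewhere. Both strands were searched, a window may hold several cores, and a match in letters is a description and not evidence of binding.

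**Figure D2:**
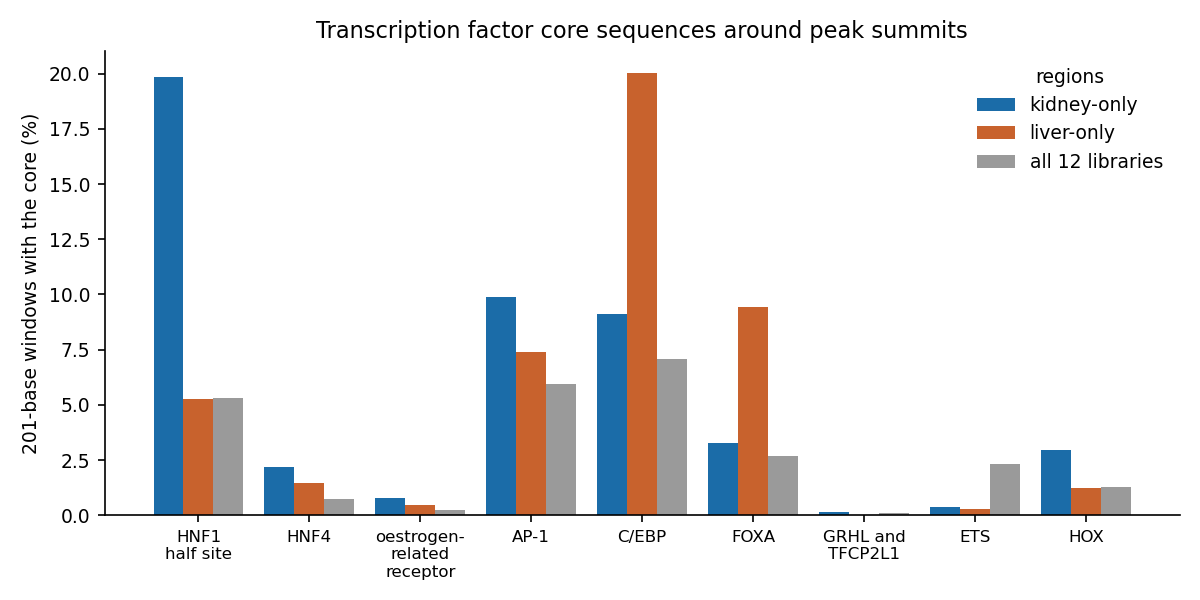
Share of summit windows (%, vertical axis) that hold each transcription factor core (horizontal axis), for kidney-only regions, liver-only regions and regions open in all 12 libraries. The HNF1 bar is the tallest for kidney-only regions at 19.9% and the C/EBP bar the tallest for liver-only regions at 20.0%.

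RNA of 2 factors that bind these cores was measured in the same tissues, in CPM (counts scaled to library size). Cebpa, which encodes a C/EBP factor, was lower in kidney, with 62.3 ± 4.62 CPM (SD, n = 4) against 495 ± 21.5 in young liver (log2 difference -3.01 ± 0.13, adjusted p = 1.26e-09, edgeR's quasi-likelihood test). Hnf4a differed by -0.52 in young and -0.69 in old mice, within 2-fold.

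MACS2 fold enrichment, the height of a peak over its local background on a linear scale, gave the size of the signal in each kidney library. Median fold enrichment of the kidney-only regions was 5.36, 4.93 and 4.10 in the 3 young libraries and 3.80, 3.86 and 4.21 in the 3 old ones. The same libraries gave 6.68, 6.55 and 5.76, then 5.53, 5.44 and 6.15, for regions open in all 12. Kidney-only regions were therefore weaker than regions open in all 12 libraries in every kidney library. They were stronger than regions open in 6 kidney and 1 to 5 liver libraries, whose medians were 4.84, 4.58 and 4.01 in young and 3.77, 3.76 and 4.08 in old kidney. Their median was 0.842 to 0.919 of the median over all 45395 regions open in all 6 kidney libraries. The geometric mean over the 6 libraries ran from 1.93 to 16.1, with a median of 4.28. Just outside the rule, the 4526 regions open in 5 kidney and no liver libraries had a median of 3.33, and the 2685 open in 6 kidney and 1 liver library had 4.12, with a median of 2.54 for the liver peak.

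**Figure D3:**
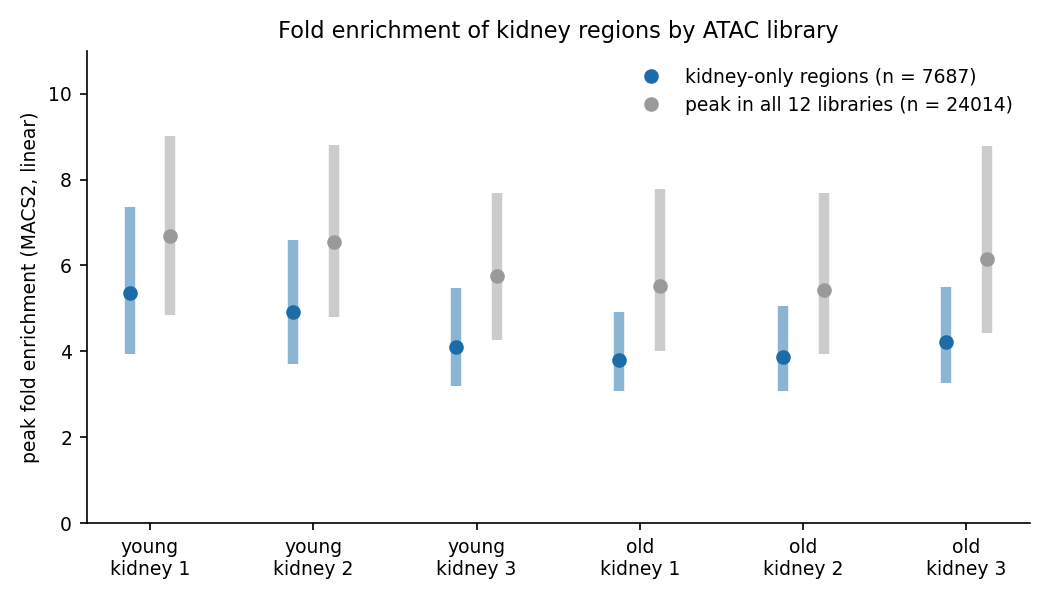
MACS2 fold enrichment (linear, vertical axis) in each of the 6 kidney ATAC libraries for kidney-only regions and regions open in all 12 libraries. Points are medians and thick lines run from the first to the third quartile. Kidney-only medians lie between 3.80 and 5.36 and below the medians of regions open in all 12 libraries in every library.

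The strongest kidney-only regions lay far from start sites. Of the 10 with the highest mean fold enrichment, none was within 1 kb of a start site, 1 overlapped an exon (of Lct, the intestinal lactase gene), 2 lay in introns and 7 between genes, and distances ran from 7.86 to 724 kb. Highest was a region 7.86 kb from Gm5150, at chr3:16014301-16015008, with fold enrichments of 18.6, 19.2 and 16.4 in young and 11.7, 15.4 and 16.2 in old kidney. An intronic region of Tmem232 at chr17:65400654-65401490 followed, with 16.5, 16.6 and 12.6 in young and 13.9, 13.7 and 17.9 in old. Before each library was centred on its median, every old library was below every young one near Gm5150, and in Tmem232 the ages overlapped. After centring the log2 difference was -0.12 near Gm5150 (adjusted p = 0.562, limma) and 0.21 in Tmem232 (adjusted p = 0.242, limma). Neither passed the age test. The region near Gpr85 at chr6:13763432-13764199 had 18.5, 18.5 and 14.2, then 10.9, 12.6 and 13.9, so that every old library was below every young one, by 0.23 on the log2 scale after centring (adjusted p = 0.187, limma), which did not pass the threshold.

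Several of the strongest regions were copies of 1 sequence. Summit windows near Gm5150, Gpr85 and Fam173b, on chromosomes 3, 6 and 15, matched each other without gaps at 82.9 to 90.1% of aligned bases together with another window, in an intron on chromosome 10 assigned to Rnf217. Between 79.1 and 89.1% of the letters of these 4 windows are soft-masked as repeats in the genome. They are shown because the likeness was seen only once the windows were read side by side. The windows are chr3:16014596-16014796, chr15:31783141-31783341 and chr10:31728169-31728369, and the Fam173b copy runs on the opposite strand to that near Gm5150.
Gm5150: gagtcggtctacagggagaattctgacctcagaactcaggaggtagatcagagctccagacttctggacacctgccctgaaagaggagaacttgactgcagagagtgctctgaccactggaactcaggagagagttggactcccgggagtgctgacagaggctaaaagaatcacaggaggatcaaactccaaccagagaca
Fam173b: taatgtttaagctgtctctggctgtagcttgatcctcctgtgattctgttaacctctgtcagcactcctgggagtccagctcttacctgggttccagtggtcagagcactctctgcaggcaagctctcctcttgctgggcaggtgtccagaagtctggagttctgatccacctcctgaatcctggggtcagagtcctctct
Rnf217: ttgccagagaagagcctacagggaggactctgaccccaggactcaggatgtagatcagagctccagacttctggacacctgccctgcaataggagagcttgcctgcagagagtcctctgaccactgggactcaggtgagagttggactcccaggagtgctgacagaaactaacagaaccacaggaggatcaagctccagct
None of the 9 cores occurs in them, so they are printed in lower case throughout.

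In all, 44 of the 7687 kidney-only windows (0.572%) matched the Gm5150 window at 75% or more of at least 100 aligned bases, against 240 of all 481669 regions (0.0498%), 4 of the 24014 regions open in all libraries and none of the 2571 liver-only regions. The copies open only in kidney were thus 18.3% of all matching regions, where kidney-only regions are 1.60% of all regions. They lay on 17 chromosomes, none at a start site, and their median fold enrichment was 9.14 (lowest 3.98). They made up 14 of the 100 kidney-only regions with the highest fold enrichment. This comparison was made after the windows had been seen and carries no test. Reads of near-identical copies can be placed at the wrong one, and how far this moved the values was not tested. Counting every kind of repeat, 344 kidney-only windows (4.48%) were masked over at least 50% of their bases, beside 4.20% of liver-only and 15.1% of all merged regions. The share was 1.57% of regions open in all 12 libraries, 2.61% of those away from promoters, and 2.39% of regions open in all 6 kidney libraries. It was 21.0% for the 100 strongest kidney-only regions.

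Genes with a start site within 1 kb of a kidney-only region showed higher RNA in kidney at both ages. There were 502 such genes at the 487 regions, 19 of them with more than 1 region. In young mice 354 could be tested after the filter on low counts, and 310 were higher and 5 lower in kidney than in liver (adjusted p under 0.05 and over 2-fold), where 25.7% and 16.9% of all genes tested were called. In old mice 312 were higher and 6 lower of 361 tested, beside 24.6% and 16.1% of all genes. A total of 295 genes were higher at both ages. The median log2 difference of the genes tested was 5.67 in young mice (5.50 with the 90 genes without liver counts set to their lower bound) and 5.41 in old mice (5.28 with 83 at the bound), against 0.08 and 0.03 over all genes.

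Many of these genes pass the filter through kidney alone, where a higher level is then built in. Liver counts were 0 for 203 of the 502 genes in young and 186 in old mice. Of the 109 that also passed it in young liver, 69 were higher and 5 lower in kidney, and of 115 in old liver 71 were higher and 6 lower. The genes were also split by liver chromatin at the start site. Where a region with a liver peak stood at the start site too (217 genes), 136 of 175 tested genes were higher in young kidney, and where none did (285 genes), 174 of 179 were. This difference was not tested. The split was not repeated among genes that also passed the filter in liver, so the higher share may be built in.

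Of genes called higher at both ages, the 12 with the most kidney RNA per kb of exon are described next. Klk1, the tissue kallikrein that releases kinins, had a region over its start site at chr7:44224959-44225657 and reached 1816, 1975, 1994 and 2664 CPM in young and 2590, 1073, 2863 and 1326 CPM in old kidney. Its liver levels were 0.257 to 0.677 CPM in young and 0 to 0.192 CPM in old mice, with log2 differences of 12.08 ± 0.33 (SE, adjusted p = 5.85e-11, edgeR) and 14.65 ± 0.93 (adjusted p = 1.16e-06). Liver and kidney libraries did not overlap, and old kidney libraries spread more widely than young ones.

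Slc34a1, the sodium-phosphate cotransporter of the proximal tubule, had 3293, 3042, 2710 and 3276 CPM in young and 2029, 1875, 2289 and 1573 CPM in old kidney. No young liver library held a count, which makes it at least 127549-fold higher in young kidney (3 counts over the group as the floor). The age difference was -0.61 on the log2 scale (adjusted p = 0.0161), with no overlap of the ages but short of 2-fold. Its region at chr13:55399295-55399986 was among the weaker ones, with fold enrichments of 4.70, 1.97 and 2.19 in young and 2.55, 2.24 and 3.69 in old kidney. A large RNA difference thus did not come with a strong peak.

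Miox, which starts the breakdown of myo-inositol, had 1823, 2005, 1746 and 2698 CPM in young kidney and at most 0.669 CPM in young liver (log2 difference 12.60 ± 0.40, adjusted p = 1.35e-10). Cltrn, the collectrin that carries amino acid transporters to the brush border, had 876, 836, 1086 and 955 CPM against at most 0.299 (12.37 ± 0.31, adjusted p = 4.42e-11). Akr1c21, a hydroxysteroid dehydrogenase, had 649, 733, 749 and 799 CPM against at most 0.358 (12.33 ± 0.38, adjusted p = 1.19e-10). These 3 carry the HNF1 core in the windows printed above, and in each every kidney library exceeded every liver library by orders of magnitude.

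Fxyd2, a subunit that tunes the sodium pump, had 1676, 1648, 1565 and 2406 CPM in young kidney against at most 0.257 in liver. Cdh16, the kidney cadherin, had 1045, 1001, 990 and 1274 CPM against at most 0.376, and its region at chr8:104623820-104625179 was stronger than most at a start site, with fold enrichments of 7.22 to 9.63 over the 6 libraries. Guca2b, which encodes uroguanylin, a peptide that promotes salt excretion, had 193, 231, 263 and 300 CPM and no liver count at either age (at least 10042-fold in young and 14183-fold in old mice). All 3 passed the test at both ages.

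Of the remaining 4, Spp1 and Cd63 had RNA in liver too. Spp1, which encodes osteopontin, had 1292 to 1457 CPM in young kidney and 51.8 to 121 CPM in young liver, a log2 difference of 4.08 ± 0.27 (adjusted p = 5.26e-08). Cd63, a tetraspanin of late endosomes, had 704 to 941 CPM against 4.36 to 10.9 (6.51 ± 0.29, adjusted p = 1.95e-09). Wfdc15b had 125 to 191 CPM against at most 0.451 (9.46 ± 0.45, adjusted p = 2.94e-09). Spink1, a trypsin inhibitor, had 283 to 461 CPM in young kidney and 1 count in all young liver libraries, a ratio of 43128 with a counting interval of 7740 to 1703510. The osteopontin gene was therefore the one of the 12 with the smallest difference, and its liver level was well above 0.

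**Figure D4:**
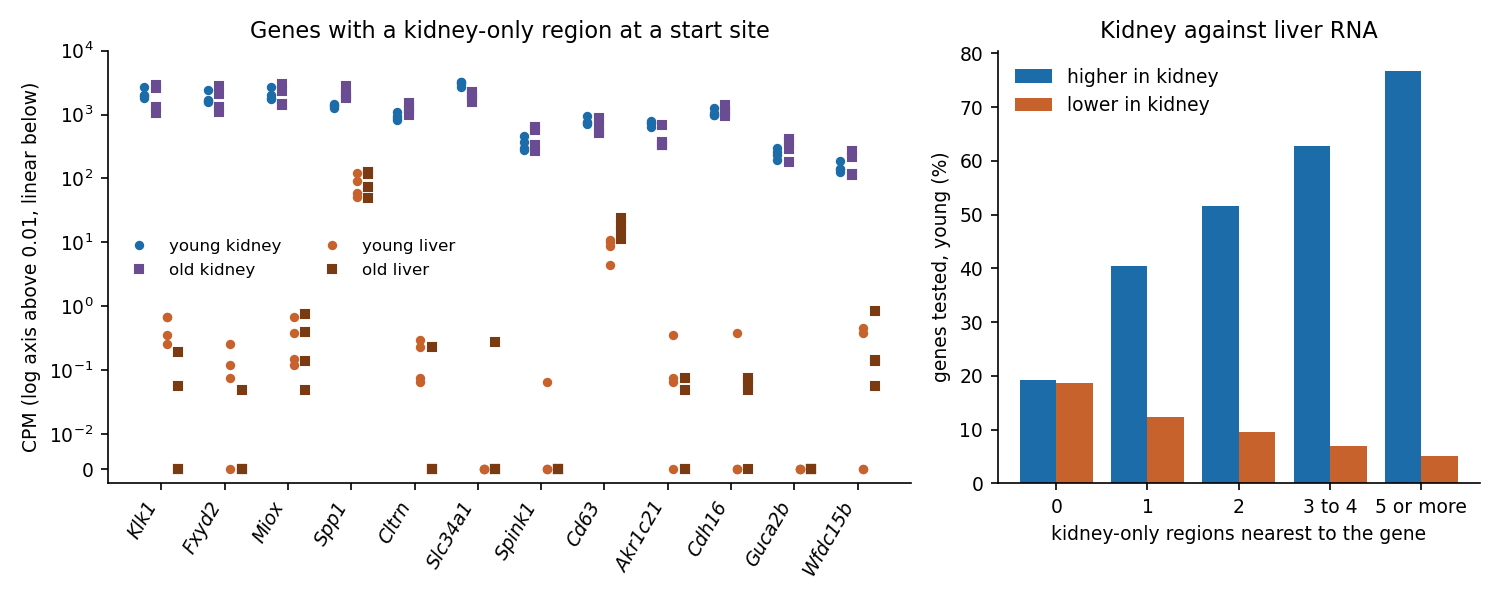
Left, RNA in CPM (log axis above 0.01, linear below) of the 12 genes named for their kidney level, with 1 point per library in each of the 4 groups. Right, share of genes tested in young mice (%) that were higher or lower in kidney than liver, by how many kidney-only regions have the gene as their nearest: 19.2% were higher with none and 76.6% with 5 or more.

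All kidney-only regions, those at start sites included, were also read through the gene of the nearest start site. They named 4677 genes, of which 3044 were nearest to 1 region and 166 to 5 or more. Among genes nearest to none, 19.2% of 10722 tested were higher and 18.7% lower in young kidney than in young liver. The share higher was 40.4% for genes with 1 region, 51.6% with 2, 62.8% with 3 to 4 and 76.6% with 5 or more, while the share lower went from 12.5 to 5.11%. Old mice gave 19.2, 36.0, 48.2, 56.8 and 73.9% higher in the same order. Counting only the 7200 regions away from start sites, which named 4390 genes, the share higher in young kidney was 20.4% with none and 38.0, 49.1, 61.0 and 75.2% with 1, 2, 3 to 4 and 5 or more. Among genes that also passed the filter in young liver the same shares were 10.8, 24.9, 35.3, 44.0 and 61.3%. Both of these counts were added after the data had been seen. The length of the stretch for which a gene is the nearest was not taken into account.

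Trabd2b, a membrane protease that cleaves Wnt proteins, was nearest to 17 regions, more than any other gene. It had 100.5, 90.0, 80.1 and 69.4 CPM in young and 53.6, 64.0, 54.3 and 57.1 CPM in old kidney, with at most 0.475 CPM in any liver library (log2 difference 8.77 ± 0.25 in young, adjusted p = 6.97e-11, and 7.69 ± 0.44 in old, adjusted p = 6.59e-07). Lmo7 and Tbl1xr1 had 12 regions each. Lmo7, a protein of cell junctions, was higher in kidney by 2.02 ± 0.17 (adjusted p = 4.94e-07), whereas Tbl1xr1, a subunit of a corepressor complex, gave -0.28 ± 0.16 (adjusted p = 0.144) in young and -0.58 ± 0.23 (adjusted p = 0.0586) in old mice and was called in neither. Many kidney-only regions around a gene did not always come with a difference in its RNA.

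Fhod3, a formin, Kazn, a protein of epithelial junctions, and Xylt1, which starts the sugar chains of proteoglycans, had 10 regions each. Fhod3 had 47.8 to 57.6 CPM in young kidney against 1.13 to 1.85 in liver (5.21 ± 0.19, adjusted p = 2.95e-10) and Kazn 47.3 to 55.7 against 0.602 to 0.956 (6.05 ± 0.18, adjusted p = 1.07e-10). All 10 Kazn regions were intronic, and none held the HNF1 core, whereas 4 of the 10 of Fhod3 did. Xylt1 was at 7.50, 5.55, 2.45 and 1.57 CPM in young kidney and had few liver counts, a ratio of 185 with a counting interval of 63.0 to 902 (adjusted p = 2.73e-05), and was not tested in old mice. Lamb1, a laminin chain, and Bend5 had 9 regions each and were called higher at both ages, by 3.25 ± 0.15 and 6.34 ± 0.34 in young mice.

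Regions at or near segment marker genes were counted by list, and the lists were not tested against each other or against all genes. Over all 24534 genes placed, 502 had a kidney-only region at a start site and 4677 were nearest to one. Of 24 proximal tubule genes, 10 had a kidney-only region at a start site (Slc34a1, Slc34a3, Slc5a2, Slc5a8, Slc5a10, Slc6a19, Slc13a1, Cubn, Miox and Ggt1) and 17 were the nearest gene of a region, with 25 regions in all. Of the 16 thick ascending limb genes, 6 had one at a start site (among them Slc12a1, Bsnd and Cldn19) and 12 were nearest to 26 regions. Distal and connecting tubule genes had 2 of 12 at a start site (Trpv5 and Sall3) and principal cell genes 2 of 12 (Scnn1a and Fxyd4). Of the 13 intercalated cell genes none had one at a start site and 2 were nearest to 4 regions, and of 12 podocyte genes 1 (Magi2) had one at a start site. Every tested gene of the first 4 lists with a region nearby was higher in kidney at both ages, which was 16 of 16, 12 of 12, 6 of 6 and 5 of 5. Nearly all of them pass the filter through kidney alone, so that a higher call was built in and the counts are a description. In young liver Slc13a3, Scnn1a and Tfcp2l1 alone also passed it, named here after their values had been seen. Over these lists as a whole, with or without a region nearby, 23 of 23, 16 of 16, 12 of 12 and 12 of 12 tested genes were higher in young kidney, and 23 of 23, 16 of 16, 11 of 12 and 12 of 12 in old kidney. Of the intercalated cell genes 11 of 13 tested were higher in young and 12 of 13 in old kidney, and of 11 podocyte genes tested 10 were higher and 1 lower at each age.

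Slc5a2, the glucose transporter SGLT2, had 358, 293, 308 and 358 CPM in young and 240, 205, 259 and 186 CPM in old kidney with no liver count, and both its regions lay within 1 kb of a start site. Slc12a1, the salt cotransporter NKCC2 of the thick ascending limb, had 1341, 1266, 945 and 980 CPM in young and 869, 1101, 865 and 1074 CPM in old kidney, again with no liver count (at least 47542-fold in young mice). Young and old libraries of Slc12a1 overlapped. Scnn1a, a subunit of the epithelial sodium channel, was also found in liver, at 26.7 ± 3.49 CPM (SD, n = 4) against 104 ± 6.62 in young kidney (log2 difference 1.95, adjusted p = 5.78e-08).

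Transcription factors of kidney epithelium were nearest to more regions than any segment list. Theirs was also the longest of these lists, and neither this nor the length of the stretch nearest to each gene was taken into account. Of 26 listed, 6 had a region at a start site (Pax2, Pax8, Lhx1, Grhl2, Ehf and Pou3f3) and 18 were nearest to 59 regions. Of the 19 with either, 18 were tested at each age and 16 of them were higher in young and 16 in old kidney, beside 21 of the 24 tested on the whole list. Only 5 of them also passed the filter in young liver, of which 3 were higher in kidney. Esrrg, an orphan receptor of oxidative metabolism, was nearest to 8 regions between 76.9 and 179 kb away, 6 of them with the HNF1 core. Its RNA was at 69.9, 66.5, 58.6 and 39.4 CPM in young and 30.6, 41.8, 25.5 and 29.7 CPM in old kidney, against 2.48 to 6.75 CPM in young liver (3.82 ± 0.29, adjusted p = 2.51e-07). The only overlap between the ages lay between the lowest young and the highest old library. Irx3, a patterning factor of the nephron, was nearest to 7 regions and Tfap2b, a factor of the distal nephron, to 6.

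Pax8, the paired-box factor that marks renal epithelium, had 49.0, 47.4, 51.7 and 47.2 CPM in young kidney with no young liver count, at least 2001-fold higher. It was nearest to 4 regions. Pou3f3 had 90.2 ± 4.19 CPM (SD, n = 4) in young and 92.1 ± 3.57 CPM in old kidney and Lhx1 21.5 ± 1.61 and 13.8 ± 0.636 CPM, both without a liver count. Among 39 Hox genes, which set position along the body axis, 8 had a region at a start site (Hoxa10, Hoxb9, Hoxc5, Hoxc9, Hoxd3, Hoxd9, Hoxd10 and Hoxd11), and the 11 nearest to a region were all higher in young kidney, 10 of them also in old, as were 29 of 29 tested Hox genes of the whole list in young and 28 of 30 in old kidney. None of these 11 passed the filter in liver, so the higher calls were built in. Hoxa10 had 44.3 to 53.2 CPM in young kidney and no liver count. Of 20 adhesion and junction genes, 4 had a start-site region (Cdh16, Cldn7, Krt7 and Wfdc2), and of the 12 nearest to one 11 were higher and 1 lower in kidney at each age, beside 16 and 3 of the 20 on the whole list in young and 17 and 3 in old mice. Of the 12, 6 also passed the filter in liver at each age, with 5 higher and 1 lower in kidney. For the rest a higher call was built in.

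Markers of other cell types were looked for as well. None of the 16 hepatocyte, 10 endothelial, 10 macrophage, 8 B and plasma cell and 8 T cell genes had a kidney-only region at a start site. The regions that had such a gene as their nearest numbered 2 for hepatocyte (Ttr), 2 for macrophage (Csf1r and Ptprc), 2 for B and plasma cell (Mzb1 and Blnk) and 1 for T cell genes (Cd2), with none for endothelial genes. Over all 24534 genes placed, 502 had a start-site region and 4677 were nearest to one, so lists this short hold few such genes in any case.

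A few genes went the other way. Of the start-site genes, Arap1, Cebpa, Cyp2a5 and Lrit2 were lower in kidney at both ages. Cyp2a5, a cytochrome P450 of hepatocytes, had 24.6, 26.5, 26.8 and 35.1 CPM in young kidney against 923, 822, 212 and 1527 CPM in young liver (log2 difference -4.96 ± 0.50, adjusted p = 2.77e-06). Arap1, a regulator of small GTPases at the membrane, had 26.0 to 29.97 CPM against 73.0 to 99.1 (-1.60 ± 0.13, adjusted p = 5.86e-07). Lrit2 had no young kidney count and 4.16 to 7.35 CPM in young liver. The region beside Cebpa, at chr7:35120067-35121021, lay 764 bp from the start site and had fold enrichments of 2.92 to 3.73, so the gene for this hepatocyte factor had an element open only in kidney while its RNA was higher in liver. Pls3 and Sgsm1 were called lower in old kidney alone, and Atf3 was lower in young and higher in old kidney. Counting ignored strand, so an overlapping or antisense transcript at a start site cannot be told apart from the gene named.

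Among regions that kept a peak in every kidney library, as the rule requires, few kidney-only regions differed with age. Of the 7687, 67 (0.872%) had higher and 223 (2.90%) lower fold enrichment in old than in young kidney (limma on log2 fold enrichment, each library centred on its median, adjusted p under 0.05), where 5.63% of the 45395 regions open in all 6 kidney libraries were higher and 1.85% lower. The median log2 difference was -0.03 and 46.7% of the regions were above 0. The many higher calls of the background came from promoters: 1946 of the 10931 start-site regions open in all libraries were higher and 30 lower (median 0.26). Away from start sites, regions open in all libraries had 273 higher and 343 lower of 13083 (2.09% and 2.62%) and a median of -0.02, close to the kidney-only median. Kidney-only regions at start sites had 5 higher and 6 lower of 487 and a median of 0.03.

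**Figure D5:**
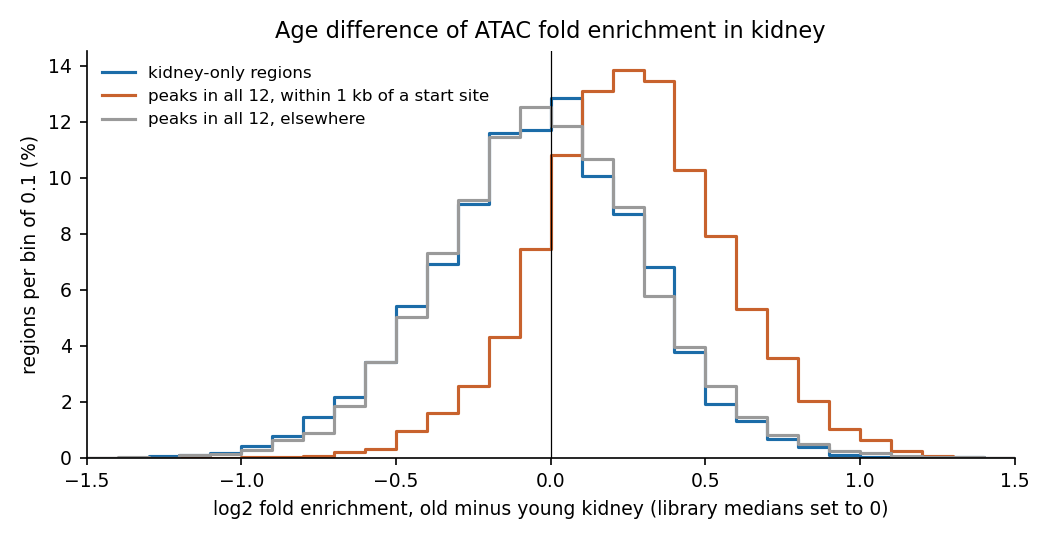
Share of regions per bin of 0.1 (%, vertical axis) by log2 difference in fold enrichment between old and young kidney (horizontal axis, library medians set to 0), for kidney-only regions and for regions open in all 12 libraries at start sites and elsewhere. Kidney-only regions centre near -0.03 and lie over the shared regions away from start sites, while shared start-site regions centre near 0.26.

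How the libraries were put on 1 scale set the split between higher and lower. With no centring the median of all regions shifted by -0.22 and the kidney-only calls became 6 higher and 419 lower (all regions 345 and 1736). After quantile normalisation they were 27 and 249 (all regions 1341 and 1065). The median of kidney-only regions stayed 0.07 to 0.15 below that of all regions under these and all other settings. The counts also rested on single libraries: without young kidney 1, 2 or 3 they were 25 and 71, 33 and 114, or 34 and 158, and without old kidney 1, 2 or 3 they were 37 and 158, 49 and 236, or 10 and 91. At an unadjusted p under 0.05, 1261 kidney-only regions differed (16.4%), beside 22.8% of all regions tested.

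The 3 regions lower in old with the smallest p lay far from the start site of their nearest gene. A region in an intron at chr17:67102018-67102455, 75.8 kb from Mir5709, had fold enrichments of 15.8, 15.8 and 11.8 in young and 5.47, 4.91 and 4.93 in old kidney (log2 difference -1.28 ± 0.15, adjusted p = 0.000244). A region 282 kb from Satb1, at chr17:51528189-51528602, had 13.5, 14.3 and 13.1, then 5.83, 3.79 and 4.93 (-1.29 ± 0.17, adjusted p = 0.000390). The Rnf217 region, one of the repeat copies printed above, had 16.3, 15.7 and 13.2, then 6.75, 7.01 and 6.63 (-0.93 ± 0.13, adjusted p = 0.000574). In all 3 every old library was below every young one. No alternative changed the call of these 3 or of the 3 regions higher in old described next.

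Of the 44 copies of the shared repeat, 9 were lower and none higher in old kidney, with a median log2 difference of -0.34. Among all 62 copies open in the 6 kidney libraries 11 were lower, so copies gave 9 of the 223 kidney-only regions that fell. This list was put together after the values had been seen.

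Higher in old kidney were a region 489 kb from Megf9 at chr4:71023989-71024932, with 4.07, 3.17 and 2.21 in young and 5.65, 6.87 and 7.03 in old (1.30 ± 0.23, adjusted p = 0.00213), and regions 8.48 kb from Prl2c2 and 8.56 kb from Prl2c5, placental prolactin-family genes on chromosome 13. Prl2c2 had 3.33, 3.87 and 2.84, then 5.83, 6.03 and 8.67 (1.24 ± 0.22, adjusted p = 0.00216), and Prl2c5 had 4.07, 5.46 and 2.84, then 7.72, 6.73 and 8.67 (1.16 ± 0.21, adjusted p = 0.00295). The Prl2c2 and Prl2c5 windows match at 139 of 140 aligned bases on opposite strands, so reads could be shared and the pair is uncertain and not 2 independent regions.

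A region of each direction is printed, with the AP-1 core in capitals near Prl2c2 (chr13:13014208-13014408) and the HNF1 core in capitals near Satb1 (chr17:51528285-51528485), since these cores differed in frequency between the directions.
Prl2c2: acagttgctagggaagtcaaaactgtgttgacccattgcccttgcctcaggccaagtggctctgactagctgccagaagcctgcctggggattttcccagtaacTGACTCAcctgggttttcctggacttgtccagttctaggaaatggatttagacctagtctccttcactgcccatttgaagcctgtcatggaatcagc
Satb1: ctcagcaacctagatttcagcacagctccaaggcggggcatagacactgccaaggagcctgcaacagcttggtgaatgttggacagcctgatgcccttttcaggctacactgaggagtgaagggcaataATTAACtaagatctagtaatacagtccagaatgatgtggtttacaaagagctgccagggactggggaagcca
The AP-1 core, bound by FOS and JUN proteins, stood in 18 of the 67 kidney-only regions higher in old (26.9%), in 13 of the 223 lower (5.83%) and in 730 of the 7397 not called (9.87%). Among the other regions open in all 6 kidney libraries it stood in 5.27% of those higher and 4.53% of those lower, and 83.2% of the former were promoters. The HNF1 core showed the opposite order, with 10.4% of kidney-only regions higher in old, 22.9% of those lower and 19.9% of those not called. The near-identical copies at Prl2c2 and Prl2c5 both count among the 18. Without centring 4 of 6 regions higher in old held the AP-1 core, and without old kidney 3 it was 5 of 10, beside 6.68% and 6.59% of those lower. These settings left the fewest regions higher in old. Under the other alternatives the AP-1 share was 27.3 to 44.4% of those higher and 3.70 to 8.77% of those lower. The HNF1 share under all alternatives was 0 to 18.2% of those higher and 18.3 to 25.4% of those lower. These shares rest on few regions and were not tested, and the shares under the alternatives were added after the data had been seen.

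RNA of the genes nearest to these regions was compared with age. Of 44 genes tested nearest to a region higher in old, Capg and Ubd had higher RNA in old kidney and none had lower, which is 4.55% higher beside 3.55% near kidney-only regions not called. Of 135 nearest to a region lower in old, Smoc2 had higher RNA and none lower, which is 0.741% higher beside 3.55%, and none lower beside 0.668%, near regions not called. The differences between these shares were not tested. These 3 are named because they are all there were, after their values had been seen.

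Few genes at kidney-only start sites passed the age test in kidney together with a 2-fold change. Of 378 tested, 13 were higher and 4 lower in old kidney by edgeR's test and over 2-fold, where 5.68% of all genes were higher and 0.407% lower, and 130 had an unadjusted p under 0.05 (34.4%, beside 30.1% of all genes). By the adjusted p alone, with no fold required, 30 were higher (7.94%) and 31 lower (8.20%), beside 8.15% and 3.36% of all genes. Of genes nearest to no region 6.31% were higher, and with 1, 2, 3 to 4 and 5 or more regions the share was 4.23, 1.89, 3.65 and 0.694%, the last being 1 gene of 144. The share lower in old was 0.335% for genes nearest to no region, then 0.517, 1.02, 0.487 and 1.39% in the same order, the last being 2 genes of 144. Leaving out a kidney library moved the start-site counts. Without young kidney 1, 2, 3 or 4 they were 8 and 2, 8 and 3, 8 and 5, or 17 and 7, and without old kidney 1, 2, 3 or 4 they were 10 and 2, 14 and 11, 13 and 5, or 8 and 2.

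Immune cell markers rose with age in the same kidney libraries. All 10 macrophage genes were called higher in old kidney, and their summed level went from 116 to 138 CPM in young to 532 to 1047 CPM in old libraries. Of 8 B and plasma cell genes 6 were higher (14.2 to 20.8 CPM, then 251 to 360 CPM), and of 7 T cell genes 6 were (3.66 to 6.14 CPM, then 19.5 to 26.1 CPM). The library old kidney 2 also held hepatocyte RNA, with 1804 CPM of Alb against 7.28 to 33.3 CPM in the other 7 kidney libraries, and a median hepatocyte gene at 0.852% of its liver level against at most 0.0467%. The part of either in the age differences was not tested beyond the counts without that library given above.

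Of the 13 higher genes, 6 are given with their values. Atf3, a stress-induced factor of the AP-1 family, had 0.644, 1.28, 1.30 and 1.82 CPM in young and 3.90, 3.83, 5.83 and 5.62 CPM in old kidney (log2 difference 1.99 ± 0.32, adjusted p = 0.00417). Its start-site region at chr1:191216092-191217241 had fold enrichments of 3.33, 2.64 and 2.21 in young and 3.28, 2.66 and 4.47 in old kidney. These overlap before centring. After centring the region was higher in old by 0.55 on the log2 scale (unadjusted p = 0.0213, adjusted p = 0.135, limma). RNA of Atf3 thus passed the age test, while its region was also higher in old but did not pass.

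Cx3cl1, the chemokine fractalkine, had 51.6, 55.2, 48.0 and 57.2 CPM in young and 97.8, 100.8, 84.1 and 126 CPM in old kidney (1.01 ± 0.15, adjusted p = 0.00255). Foxs1, a forkhead factor, had 0.720 to 1.31 CPM, then 2.71 to 4.37 CPM (2.03 ± 0.29, adjusted p = 0.00255), and Scx, a factor of tendon and matrix-forming cells, 0.770 to 1.28, then 2.82 to 4.21 CPM (1.76 ± 0.26, adjusted p = 0.00265). Capg, an actin-capping protein, had 44.6 to 71.4 CPM, then 81.6 to 144 CPM (1.08 ± 0.19, adjusted p = 0.00618). Col5a2, a collagen chain, reached 130, 92.0, 42.6 and 94.3 CPM in old against 31.0 to 44.3 CPM in young kidney, so its old libraries overlapped the young ones in 1 case. The remaining higher genes were Bmp15, Ccdc182, Cyp2a5, Fbxo16, Gm11127, Plet1 and Ptgds.

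The 4 lower genes were Slc5a8, Fut9, Mansc4 and Amer1. Slc5a8, a proximal tubule carrier of lactate and short fatty acids, had 103, 108, 97.3 and 79.0 CPM in young and 36.5, 44.3, 48.2 and 39.99 CPM in old kidney (log2 difference -1.13 ± 0.13, adjusted p = 0.000980). Fut9, a fucosyltransferase, had 394, 340, 269 and 191 CPM, then 128, 150.99, 134 and 121 CPM (-1.10 ± 0.20, adjusted p = 0.00717). Both were without overlap between the ages. Their start-site regions did not pass the test, at log2 differences of 0.16 (adjusted p = 0.734) and 0.12 (adjusted p = 0.801).

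Whether the kidney to liver difference itself changed with age was tested as an interaction. Of 382 start-site genes tested, 4 had a larger and 10 a smaller difference in old mice (adjusted p under 0.05), where 0.845% and 0.871% of all genes were called, and 65 had an unadjusted p under 0.05 (17.0%, beside 14.0% of all genes). Larger were Atf3, Mir1191, Ptgds and Slc39a5. Ptgds, a prostaglandin D synthase, had 5.26 to 9.33 CPM in young and 10.96 to 19.6 CPM in old kidney while liver went from 3.05 to 5.34 CPM to 0.676 to 2.64 CPM (interaction 2.52 ± 0.46 on the log2 scale, adjusted p = 0.0118). Kidney libraries were higher and liver libraries lower in old than in young mice, each without overlap.

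Smaller were A4galt, Cd36, Dleu7, Enpp6, Gcnt1, Gga2, Igfbp3, Mcf2l, Sema3b and Vil1. For Vil1 and Cd36 the liver levels of the ages were apart while the kidney levels overlapped. Vil1, the microvillus protein villin, had 144 to 170 CPM in young and 124 to 159 CPM in old kidney, while liver had 0, 0.0597, 0.0743 and 0.193 CPM in young and 0.282 to 0.611 CPM in old mice (-2.47 ± 0.50, adjusted p = 0.0192). Cd36, a fatty acid receptor, had 117 to 181, then 140 to 180 CPM in kidney, and 93.2 to 142, then 207 to 319 CPM in liver (-1.14 ± 0.26, adjusted p = 0.0338). Igfbp3, which binds insulin-like growth factors, had 220 to 247, then 120 to 138 CPM in kidney, without overlap but short of 2-fold, and in liver 31.7 to 46.0, then 30.8 to 41.0 CPM (-0.82 ± 0.19, adjusted p = 0.0399). Leaving out any of the 16 libraries gave 2 to 6 larger. It gave 14 smaller without old liver 1, 7 without old liver 4, and 3 to 6 without any other.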

How the data were processed

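Peak files and gene counts from 28 of the 50 samples were used, and the other 22 were not used here. Raw counts per gene were deposited. To make them the authors used Trimmomatic 0.39 and HISAT2 2.2.1 on the mm10 build, then HTSeq 0.12.4 with strand ignored. For each ATAC-seq library the authors ran Bowtie2 2.3.5.1 and MACS2, without pooling replicates, and deposited each peak's fold enrichment with its −log10 p and q. All deposited peaks had a −log10 p of at least 2.

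Peaks were merged with Python 3.11.15, an interval listed several times in a library being counted once. Start sites and exons came from GENCODE vM21 and bases from GRCm38, and start-site regions are those no more than 1 kb away. Cores were sought on both strands around the summit of the strongest kidney peak. RNA was tested with edgeR 4.0.16 (TMM, filterByExpr with a minimum count of 10, quasi-likelihood test). A gene was called where the adjusted p was below 0.05 and the fold above 2 or below 0.5, and an interaction on the adjusted p only. limma 3.58.1 tested log2 fold enrichment over 45395 regions. All p-values were adjusted by Benjamini-Hochberg over every feature tested. Rows outside genes held 16.5 to 28.8% of a library's counts and were left out of library sizes. Genes named were the 12 start-site genes with most kidney RNA per kb of exon, the 8 nearest to most regions, those lower in kidney, those called with age and those of the interaction. Regions named were the 10 with the highest fold enrichment and, per direction of age, the 3 with the smallest p. Regions and gene lists were chosen with earlier results of these data known. The merging and the fits were tested on simulated data. Alternatives, among them DESeq2 1.42.0, changed peak thresholds, overlaps, windows, scaling, filters and blocking, or omitted single libraries. Values of some genes are not reported here.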

Additional observations from a re-analysis of the deposited data

Results flagged for a closer look

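In 13 of 160 groups of 4 libraries, 1 library stood apart from the other 3 (a gap larger than the 95% limit of Dixon's test), where chance alone gives about 1 in 20. Hepatocyte markers summed to 2900 CPM in old kidney 2 against 193 to 287 CPM in the other old kidney libraries, and to 340688 CPM in old liver 1 against 190777 to 203794. Thick ascending limb markers summed to 8398 CPM in young kidney 3 (others 9122 to 9197), intercalated cell markers to 48.8 CPM in old liver 2 (67.3 to 70.95), B and plasma cell markers to 10.2 CPM in young liver 4 (7.28 to 7.65) and T cell markers to 26.1 CPM in old kidney 4 (19.5 to 20.3). Among named genes, Akr1c21 was at 693 CPM in old kidney 3 (333 to 372), Cyp2a5 at 76.6 CPM in old kidney 3 (44.6 to 49.2), Fxyd2 at 2406 CPM in young kidney 4 (1565 to 1676) and Plet1 at 22.2 CPM in young kidney 1 (14.0 to 14.4). In liver, Cebpa was at 528 CPM (483 to 486) and Enpp6 at 4.78 CPM (2.53 to 2.57) in young liver 2, and Lamb1 at 10.98 CPM in young liver 4 (15.7 to 16.4).

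The kidney to liver difference changed with age by the edgeR interaction test for the named genes Ptgds (2.52 on the log2 scale, old minus young), Atf3 (2.25), Slc39a5 (2.83), Gga2 (-0.99), Enpp6 (-1.34) and Vil1 (-2.47). No explanation was tested for these values.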

How the results depend on the processing

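The number of kidney-only regions was 4890 when peaks had to cover at least 50% of the region and 7977 to 9127 with a library left out. Their promoter share was 9.16% with peaks of −log10 q of at least 5, 8.49% with the coverage rule, 5.73% with no liver peak within 1 kb, 9.64% for start sites within 2.5 kb and 6.10 to 6.73% with a library left out. The HNF1 core share was 12.5% in windows shortened to 50 bases on either side and 16.3% at region centres. Age calls of fold enrichment were 6 higher and 419 lower with no centring, 27 higher after quantile normalisation, 32 and 108 with the mean over peaks, 33 higher at a mean fold enrichment of at least 4, and 10 to 49 higher and 71 to 236 lower with a library left out.

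Taking the nearest gene of every region in place of start-site genes gave 1534 higher and 355 lower in young and 1416 and 386 in old kidney, 119 and 22 with age, and 17 and 76 for the interaction, since many more genes were counted. Adjusted p alone gave 13 lower in young and 11 in old kidney, and 30 higher and 31 lower with age. DESeq2 gave 9 and 20 for the interaction. With a library left out, kidney against liver gave 309 to 321 higher and 5 to 8 lower in young and 311 to 325 and 6 to 8 in old mice, age 8 to 17 and 2 to 11, and the interaction 2 to 6 and 3 to 14. The labels do not say that a replicate number marks 1 animal. Same-numbered kidney and liver RNA libraries correlated at 0.11, 0.21, 0.10 and 0.44 in young and 0.26, 0.23, -0.29 and -0.04 in old mice. Libraries of different numbers ran from -0.33 to 0.23 in young and -0.35 to 0.46 in old mice. The numbers were therefore not taken to pair libraries. Same-numbered young and old kidney correlated between -0.29 and 0.29 for RNA and -0.06 and -0.01 for ATAC. Young and old mice are different animals, so these values cannot show pairing by animal. Kidney and liver ATAC libraries were not correlated. With a replicate block, age gave 7 higher and 3 lower, the interaction 3 and 3, and fold enrichment 40 higher. Of the values of named genes, 43 lost their call under an alternative, 1146 kept it and none reversed. The cause of these changes was not tested where the alternative's own construction does not show it. Each ATAC group had 3 libraries, and a kidney-only region may have liver signal below the peak threshold.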
